A study of Homo sapiens with 4 samples.

Results

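The ADK and KAT6B locus is the window chr10:75850000-76850000 (hg19, 1 Mb on the long arm of chromosome 10). It held 37 of the 21308 FOXA2 peaks of the vehicle list and 29 of the 14846 of the GSK2879552 list. A peak belonged to the locus when its summit, the position of highest signal, lay in the window. The window was chosen by its measured strength, since it contains sites with some of the highest vehicle −log10 p-values of the list. Its peak number and strength in vehicle are therefore descriptions and carry no test. The ratios of GSK2879552 over vehicle reuse those vehicle values, and choosing sites for high vehicle values biases such ratios below 1, so they too are descriptions.

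The data came from FOXA2 chromatin immunoprecipitation with sequencing (ChIP-seq) in PC3, an established androgen-independent prostate cancer cell line. All cells were grown in medium with 5% charcoal-stripped serum (CSS). The first group received vehicle; the other received GSK2879552, which inhibits the histone demethylase LSD1 (also named KDM1A), at 50 µM for 4 hours. Each group comprised 2 sequencing lanes, described as technical replicates and covered by 1 peak list, so spread between cultures was not measured and no test between the groups was possible. The assay is given as ATAC-seq in the descriptions but as FOXA2 ChIP-seq in the titles, and the titles were followed.

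FOXA2 is a forkhead pioneer factor: it binds its motif in compact chromatin and makes the surrounding DNA accessible to other factors. LSD1 removes methyl groups from histone H3 and can also act on non-histone proteins. ADK encodes adenosine kinase, which converts adenosine to AMP and so sets the level of free adenosine in the cell. KAT6B (MORF, MYST4) encodes the catalytic subunit of a histone acetyltransferase complex that modifies histone H3. Both genes are transcribed in the same direction, ADK first, with 0 protein-coding genes between them in the RefSeq annotation of GRCh38.p14. VCL, which encodes the adhesion protein vinculin, and AP3M1, which encodes an adaptor-complex subunit of vesicle transport, lie before ADK there, and DUSP29, a dual-specificity phosphatase gene, follows KAT6B. In hg19, ADK was taken to span 75.91 to 76.47 Mb and KAT6B 76.59 to 76.79 Mb, bounds that are rounded to 0.01 Mb. Exons, introns and untranslated regions were not assigned, because no hg19 annotation was used here.

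The promoters of both genes are shown because the peaks lay differently around their rounded starts. No peak lay near that of ADK, whereas peaks lay on both sides of that of KAT6B. Another annotated ADK start, after chr10:74176513-74176762 in GRCh38.p14, lies further into the gene, and peaks were not measured against it. The sequences are the 250 bases before the first annotated start of each gene, 5′ to 3′, from RefSeq (GRCh38.p14, plus strand), at chr10:74150971-74151220 for ADK and chr10:74825005-74825254 for KAT6B. Capitals mark the GC box GGGCGG. These GRCh38.p14 positions cannot be set against the hg19 peaks.
ADK: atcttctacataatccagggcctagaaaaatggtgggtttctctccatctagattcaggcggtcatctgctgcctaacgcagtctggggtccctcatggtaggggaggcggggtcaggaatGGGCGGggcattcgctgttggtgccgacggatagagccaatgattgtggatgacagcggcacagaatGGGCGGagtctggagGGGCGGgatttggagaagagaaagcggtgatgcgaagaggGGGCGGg
KAT6B: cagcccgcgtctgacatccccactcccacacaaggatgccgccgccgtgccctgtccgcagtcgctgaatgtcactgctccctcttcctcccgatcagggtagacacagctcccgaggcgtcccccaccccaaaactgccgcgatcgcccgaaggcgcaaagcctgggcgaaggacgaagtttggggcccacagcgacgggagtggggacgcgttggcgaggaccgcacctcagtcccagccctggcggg
The ADK window held 4 GC boxes and the KAT6B window 0, although the window before another annotated KAT6B start held 10. A GC box on either strand was found in 42.6% of 35116 RefSeq promoter windows of this length. The 4 forkhead words searched, on both strands, were TGTTTAC (held by 2.98% of all windows), TGTTTGC (3.23%), TATTTAC (2.39%) and TATTTGC (2.63%). None of the 2 ADK and 3 KAT6B windows held one, while 10.6% of all windows held at least 1. The AP-1 word TGACTCA was also absent from these windows and occurred in 4.20% of all windows. A missing word says only that those letters are not in the window.

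FOXA2 peaks were spread along the whole locus in vehicle. Of the 37, 17 lay within ADK, 5 between the genes, 13 within KAT6B, 1 before ADK and 1 after KAT6B. Per 100 kb, this was 3.04 peaks in ADK, 4.17 between the genes and 6.50 in KAT6B. Neighbouring summits were a median of 20904.5 bp apart. The longest stretch without a summit, 106618 bp, lay inside ADK between 76053589 and 76160207. Peaks were narrow, with a median width of 313 bp (range 175 to 534). By number of vehicle summits, the window ranked 3 among 2725 windows of 1 Mb that held a peak, in which the median was 7 and the highest 48. On a grid starting at position 1, the window that overlaps most of the locus held 36 and ranked 4.

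**Figure D1:**
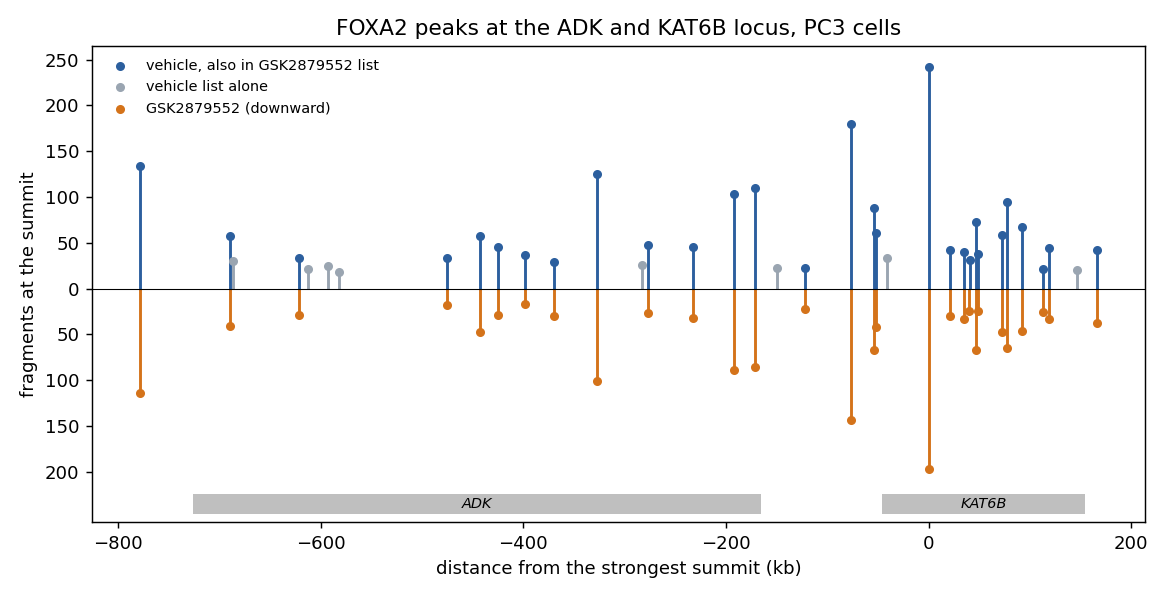
Fragments at the summit (vertical axis, vehicle upward and GSK2879552 downward) against distance from the strongest summit in kb; grey bars are the rounded spans of ADK and KAT6B. The 29 sites present in both lists include every site above 33 vehicle fragments, and the 8 sites of the vehicle list alone (grey) had 18 to 33.

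The strongest site lay within KAT6B. At chr10:76635608-76636074, about 50 kb past the gene's start, the summit held 242 fragments in vehicle, against 197 after GSK2879552. The ratio, scaled by the lowest background of each list and not by that of the site, was 0.812 (95% interval 0.670 to 0.985). Intervals of ratios at single sites and of the ratio of peak numbers cover counting error only. Fragments are sequenced DNA fragments overlapping the summit. In the vehicle list this peak ranked 2 by −log10 p, yet 64 by fold enrichment over its surroundings and 5 by fragments above the local background. In the GSK2879552 list it ranked 2 by −log10 p as well. Its summit moved by 16 bp between the lists.

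The second site lay between the genes, at chr10:76559478-76560011, about 30 kb before KAT6B. It had 180 fragments in vehicle and 143 in GSK2879552, a ratio of 0.793 (0.632 to 0.993), and ranked 9 in vehicle and 13 in GSK2879552 by −log10 p. The third, at chr10:75857526-75857877, lay about 50 kb before ADK on the side of AP3M1 and VCL. It had 134 and 114 fragments, a ratio of 0.849 (0.656 to 1.10). Both numbers were lower after GSK2879552, and only the interval of the second site stayed below 1.

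ADK carried 3 of the next sites. At chr10:76308388-76308867, about 400 kb past the rounded start of the gene, 125 fragments were found in vehicle and 101 in GSK2879552. Toward the end of ADK, chr10:76464402-76464801 had 110 and 86 fragments, and chr10:76443590-76443902 had 103 and 89. All 3 were lower after GSK2879552, with ratios from 0.780 to 0.862 (intervals from 0.581 to 1.16 over the 3), so each interval held 1.

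KAT6B and the stretch before it carried the remaining sites of the strongest 10. In KAT6B, chr10:76712930-76713315 went from 95 fragments in vehicle to 65, a ratio of 0.683 (0.490 to 0.946). This was the lowest ratio among the 10 sites. At chr10:76682693-76683063 the numbers were 73 and 67, the highest ratio of the 10 at 0.916 (0.647 to 1.29). At chr10:76728100-76728470 they were 67 and 46. The site chr10:76581845-76582182, within 10 kb of the rounded KAT6B start, had 88 and 67 fragments. Together, the 10 peaks of highest −log10 p held 57.6% of the locus's fragments above background in vehicle and 65.4% in GSK2879552, each list with its own 10; 9 sites were common to both.

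The rounded gene starts differed in how close the nearest peak lay, and distances to other annotated starts were not measured. The vehicle peak nearest to the ADK start, chr10:75946533-75946868, was about 40 kb inside the gene and had 58 fragments in vehicle and 41 in GSK2879552. Around the KAT6B start, 3 vehicle peaks lay within 10 kb. These were chr10:76581845-76582182, given above, chr10:76583485-76583844 with 61 fragments in vehicle and 42 in GSK2879552, and chr10:76594696-76594977 with 33 fragments in vehicle. The first pair of summits was 1647 bp apart, and both were present after GSK2879552. The third was absent from the GSK2879552 list. Because the gene bounds are rounded, the distance of these 3 peaks from the start cannot be given more finely.

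After GSK2879552, 29 peaks were called in the locus, and each overlapped a vehicle peak by at least 1 bp. Over the whole GSK2879552 list this share was 89.2%, and the exact interval for 29 of 29 starts at 88.1%, so the locus cannot be told from the list. No peak of the locus was found in GSK2879552 alone. Of the 37 vehicle peaks, 29 (78.4%, exact interval 61.8 to 90.2) overlapped a GSK2879552 peak, against 62.0% of the whole vehicle list. Other vehicle peaks with at least 18 fragments, the lowest number in the locus, were overlapped in 84.7% of 11478 cases (84.0 to 85.3). The limit of 18 was chosen after the values were seen. The share at the locus thus lay above that of all peaks and below that of peaks with as many fragments, and its interval holds both values. In the rest of chromosome 10 from 60 to 82 Mb, 67.5% (62.1 to 72.5) of 326 vehicle peaks were overlapped. The ratio of peak numbers at the locus was 0.784 (0.465 to 1.31), against 0.697 in the rest of the genome, a value inside that interval. Covered length fell from 11.7 kb to 8.49 kb, a ratio of 0.725, against 0.657 in the rest of the genome. Neither fall is therefore particular to the locus.

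The 8 sites of the vehicle list alone were among the weaker ones of the locus. They had 18 to 33 fragments (median 24), against 22 to 242 (median 48) at the 29 overlapped sites, so both ranges overlapped. Of the 8, 5 lay in ADK, 1 between the genes and 2 in KAT6B. The strongest was chr10:76594696-76594977 near the KAT6B start, which held 33 fragments at a deposited fold enrichment of 5.29. It lay 11183 bp from the nearest GSK2879552 summit. In ADK, chr10:76353300-76353544 followed with 26 fragments and lay 5332 bp from an overlapped site. Between the genes, chr10:76485852-76486039 had 23 fragments, with the nearest GSK2879552 summit 21268 bp away. A further pair in ADK, chr10:75949817-75950044 and chr10:76042661-76042883, had 30 and 25 fragments. The former lay 3213 bp from the peak nearest to the ADK start, which was overlapped. The other 3, with summits at 76023898 and 76053589 in ADK and at 76782129 toward the end of KAT6B, had 22, 18 and 20 fragments. The nearest overlapped site to those at 76023898, 76042824 and 76053589 was chr10:76014486-76014732, which had 33 fragments in vehicle and 29 in GSK2879552.

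These unmatched sites carried more fragments than unmatched sites elsewhere. Their median of 24 compares with 14 (interquartile range 12 to 17) at the vehicle-only peaks of the rest of the genome, and equals the median of 24 at overlapped vehicle peaks there. The local background, the fragments per position that the peak caller used as the reference at a peak, differed in the same way: its median was 5.22 at the 8 sites (4.01 to 7.61) and 1.42 at vehicle-only peaks elsewhere. GSK2879552 peaks with a background in that range numbered 656 over the genome, and had at least 16 fragments, with a 5th percentile of 21. Few listed peaks thus had fewer fragments than 21, though 1 of the locus had 17 at a background of 5.41. How often sites with so few fragments went unlisted was not measured. Fragments of the GSK2879552 library at the 8 sites are not known, so absence from that list does not show loss of binding.

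The unmatched sites lay in the lower bins of strength, without a strict order within them. With vehicle peaks of the genome split into 10 bins of equal size by −log10 p, all 23 locus peaks in bins 8 to 10 were overlapped. Elsewhere, the overlapped share was 92.6% in bin 8, 98.4% in bin 9 and 100% in bin 10. In bins 1 to 6, 14 locus peaks were found and 6 were overlapped, among them both peaks of bin 2 and none of the 3 in bins 3 and 4, while the share elsewhere ran from 19.6% in bin 1 to 68.4% in bin 6. No locus peak fell in bin 7. Locus peaks had a higher local background than other peaks in each of the 9 bins they occupied, such as 7.63 against 2.75 in bin 10. At a like −log10 p, a higher background requires more fragments. Their larger fragment numbers, with medians of 103 against 52 in bin 10 and 20 against 11 in bin 1, are therefore not a separate result.

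Sites present in both lists had fewer fragments after GSK2879552. Each of the 29 locus sites was matched to 1 GSK2879552 peak, and 27 of the 29 pairs had fewer fragments after GSK2879552 and 2 had more. Over all 13200 pairs of the genome, 78.0% were lower. Among other pairs with at least 22 vehicle fragments, the lowest number in the locus pairs, 89.98% were lower; this limit too was chosen after the values were seen. The median log2 ratio of the locus was -0.36 (order-statistic interval -0.53 to -0.28), a ratio of 0.780. It was -0.32 over the rest of the genome and -0.43 (interquartile range -0.66 to -0.20) over other pairs with at least 22 vehicle fragments. The locus median thus lay between these values, and its interval held both. Order-statistic intervals reflect the spread between sites of 1 list per group and treat the sites as independent. They do not cover spread between cultures. In the rest of chromosome 10 from 60 to 82 Mb the median was -0.37.

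**Figure D2:**
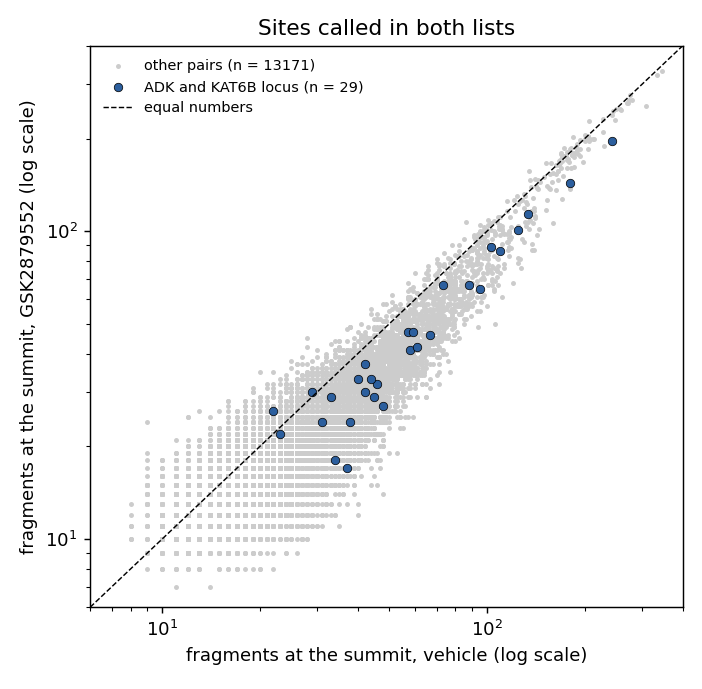
Fragments at the summit in vehicle (horizontal) and GSK2879552 (vertical), both on log axes, for sites in both lists; the dashed line marks equal numbers. The 29 locus pairs (blue) lie among the 13171 other pairs (grey), and 27 fall below the line.

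Few single sites differed beyond counting error. The ratio interval lay below 1 at 6 of the 29 pairs, held 1 at 23 and lay above 1 at 0. Over all pairs of the genome it lay below 1 at 8.24%, and over other pairs with at least 22 vehicle fragments at 14.1%. The 6 comprised the 2 strongest sites, the KAT6B site with 95 and 65 fragments, and 3 weaker sites of ADK. No p-value or adjustment stands behind these intervals, and they do not allow for the choice of the window by its vehicle values, so they describe single sites only.

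The lowest 3 ratios lay within ADK, about 250, 330 and 450 kb past its rounded start. At chr10:76237388-76237682 fragments numbered 37 in vehicle and 17 in GSK2879552, the lowest log2 ratio of the locus at -1.12 (ratio 0.459, 0.242 to 0.835). At chr10:76160096-76160326 they numbered 34 and 18, and at chr10:76358564-76358897 they numbered 48 and 27. The last 2 sites were picked after their values were seen. Of the 4 other pairs between these sites, chr10:76266292-76266568 had nearly equal numbers, with 29 and 30 fragments. The other 3 were lower after GSK2879552, with 57 and 47, 45 and 29, and 125 and 101 fragments. The highest ratio lay in KAT6B, at chr10:76748795-76748986, with 22 fragments in vehicle and 26 in GSK2879552 (log2 ratio 0.24, ratio 1.18, 0.643 to 2.18).

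Median ratios of the 2 genes and of the stretch between them lay close together. The median log2 ratio was -0.43 over the 12 ADK pairs, -0.37 over the 4 pairs between the genes and -0.37 over the 11 KAT6B pairs. Their interquartile ranges, -0.69 to -0.26 in ADK and -0.52 to -0.29 in KAT6B, overlapped, and the difference was not tested. The 10 pairs with the most vehicle fragments had log2 ratios from -0.55 to -0.13, with all 10 lower. The other 19 ranged from -1.12 to 0.24, with 17 lower. Across the 29 pairs, Spearman's rho between vehicle fragments and log2 ratio was -0.07 and Pearson's r on the log scale -0.01; both quantities contain the vehicle number and come from the same 2 libraries, so this is a description.

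**Figure D3:**
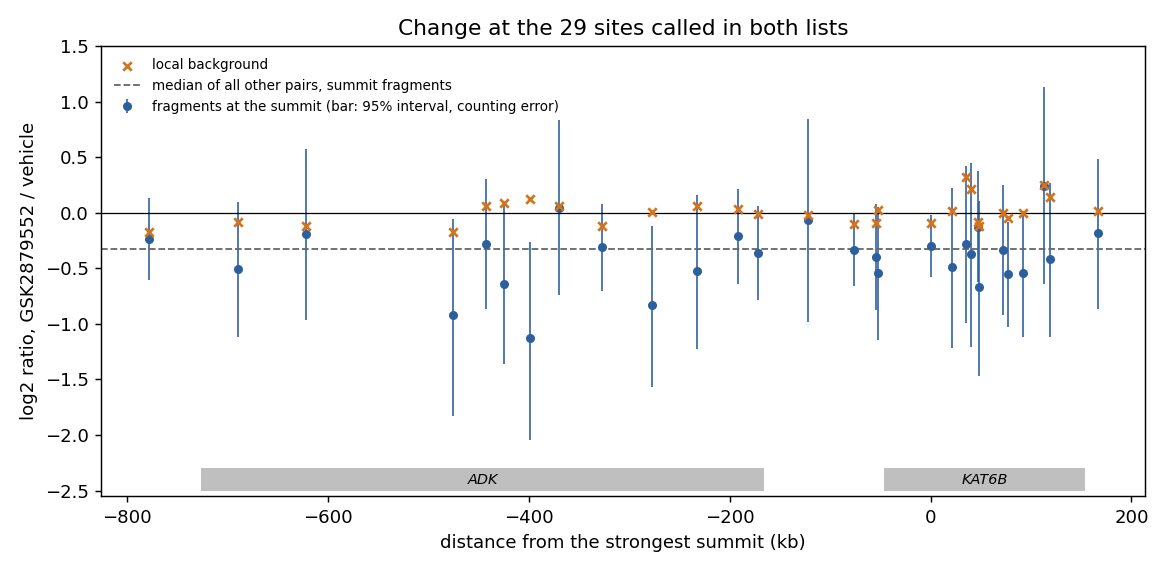
Log2 ratio of GSK2879552 over vehicle (vertical axis) at each of the 29 sites in both lists, against distance from the strongest summit in kb, with 95% intervals for counting error; crosses give the ratio of the local background, the dashed line the median of all other pairs (-0.32) and grey bars the rounded gene spans. Summit ratios center on -0.36 while background ratios scatter around 0.

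The local background did not fall with the summits. Over the 29 pairs, the median log2 ratio of local background was 0.00 (order-statistic interval -0.09 to 0.06), with 15 pairs lower and 14 higher after scaling. It was -0.06 over the rest of the genome, a value inside that interval. With the background subtracted, fragments were lower after GSK2879552 at 27 of 29 pairs, and their median log2 ratio was -0.38. The sum of fragments above background over all peaks of the locus fell from 1977 to 1380, a scaled ratio of 0.697, against 0.644 over the rest of the genome. These sums add the summit values of the peaks called, so they also move with the number of peaks, here 37 in vehicle and 29 in GSK2879552.

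Of neighbouring sites present in both lists, 4 pairs had summits 1362 to 5325 bp apart, and all 8 sites were lower after GSK2879552. The next closest pair, with summits at 76748826 and 76754934, was 6108 bp apart and is not counted among them. There the first site rose from 22 to 26 fragments and the second fell from 44 to 33. In KAT6B, summits at 76682863 and 76684225 were 1362 bp apart; the first went from 73 to 67 fragments (log2 ratio -0.13) and the second from 38 to 24 (-0.67). Their intervals, 0.647 to 1.29 and 0.362 to 1.08, overlapped. Summits at 76708095 and 76713130 were 5035 bp apart, with log2 ratios of -0.33 and -0.55. Those at 76670952 and 76676277, 5325 bp apart, had -0.28 and -0.37, and the pair before the KAT6B start, 1647 bp apart, had -0.40 and -0.54. Sites this close share their 10 kb background window in part and are not independent.

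Peaks were also narrower. Of the 29 pairs, 26 were narrower after GSK2879552 and 3 wider, against 75.0% narrower over all pairs. The median change was -47 bp at the locus and -33 bp in the rest of the genome. Overlapped vehicle peaks had a median of 48 fragments at the locus and 24 elsewhere. Widths were not compared with other pairs of at least 22 vehicle fragments, so the locus cannot be called unusual in this. All 11 KAT6B pairs were narrower. The largest change, -260 bp, was at the site between the genes at chr10:76513389-76513894, which was 506 bp wide in vehicle with 23 and 22 fragments. The fragment lengths used in peak calling, 175 bp in vehicle and 168 bp in GSK2879552, also differed in that direction, and their part in the narrowing was not tested. Summits moved little, by a median of 15 bp (23 bp in all other pairs). The largest move, 138 bp, was at chr10:76676038-76676434 in KAT6B, with 31 and 24 fragments.

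The whole locus stood on a raised local background. Its median over vehicle peaks was 5.55 fragments (range 3.89 to 10.96), or 5.14 times the lowest value of the list, against a median of 1.66 at peaks outside chromosome 10. In vehicle, 93.4% of peaks elsewhere had a background below the lowest one in the locus. In GSK2879552 the locus median was 6.13, or 5.67 times that list's lowest value. The background values of the locus are whole steps of a 10 kb window. If no control library was used, that window includes the reads of the site itself; whether one was used is not stated in the sources used here. At the 14 vehicle peaks with fewer than 35 fragments, a limit set after seeing the data, its median was 5.17. By median background, the window ranked 27 among 1838 windows of 1 Mb with at least 5 vehicle peaks.

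The raised background extended beyond the locus on both sides. The nearest vehicle peaks with a background below the list's median of 1.68 lay 2.24 Mb before the window and 4.58 Mb after it. Between them stood 138 vehicle peaks, 101 outside the locus, with a median background of 5.29 and a lowest value of 2.63. By the choice of these bounds, none of the 138 could lie below 1.68. The 102 GSK2879552 peaks in the same stretch had a median of 5.65 and a lowest value of 1.08. In the 1 Mb windows on either side of the locus the median was 4.85 and 4.69, but those windows held 21 and 18 vehicle peaks against 37. The part of the raised background in the fragment numbers and −log10 p-values of the locus was not tested. Fold enrichment, which divides by this background, placed the locus lower: 5 of its vehicle peaks were among the 100 strongest by −log10 p and 1 among the 100 strongest by fold. Its median fold enrichment was 7.21, and that of the rest of the vehicle list was 7.06.

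**Figure D4:**
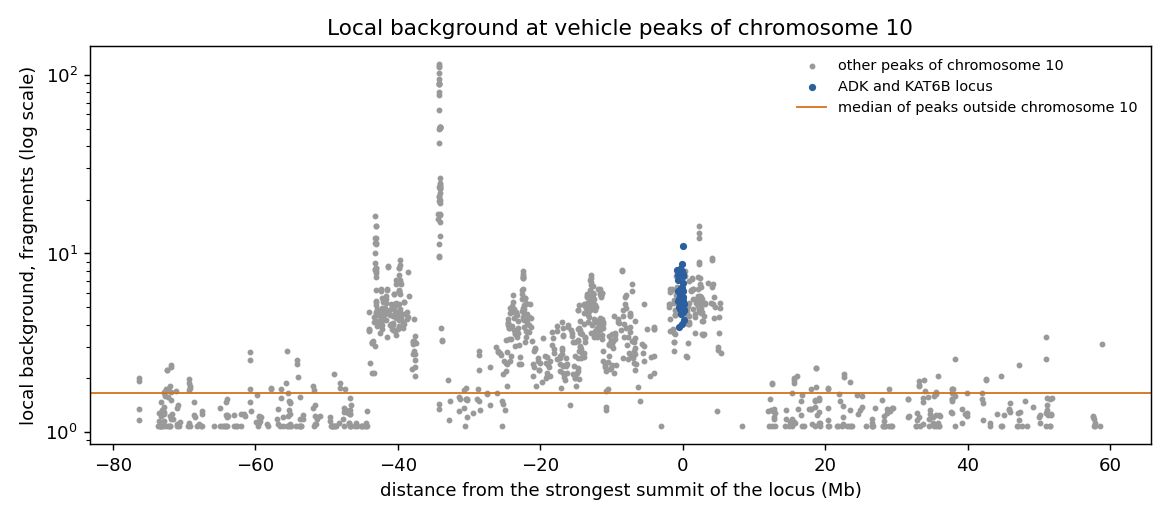
Local background at each vehicle peak of chromosome 10 (fragments, log axis) against distance from the strongest summit of the locus in Mb; the line is the median of 1.66 at peaks outside chromosome 10. The 37 locus peaks (blue) lie between 3.89 and 10.96, within a longer stretch of raised values.

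The window's edges cut through no peak. Just inside it, the outermost vehicle peaks were chr10:75857526-75857877 with 134 fragments and chr10:76802111-76802448, after KAT6B, with 42 fragments in vehicle and 37 in GSK2879552. Just outside it were chr10:75815824-75816157 with 66 fragments, 34.0 kb from the window's edge, and chr10:76951842-76952179 with 106 fragments, 102.0 kb from the edge. All 4 overlapped a GSK2879552 peak.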

How the data were processed

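FOXA2 ChIP-seq peak lists of PC3 cells, 1 per group, each covering both lanes, were used as deposited. BWA 0.7.2, MACS2 2.1.2 and SAMtools 0.1.18 are named with hg19 in the submitters' processing notes. Options, thresholds, duplicate removal and use of a control sample are details that no source used here gives. The deposited fold enrichment (a ratio), the −log10 p-value and −log10 q-value, and the score of 10 times the −log10 q-value are the authors' values.

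Summit fragments and local background were recovered from the deposited fold, (fragments + 1)/(background + 1), and from p, a Poisson tail. A whole number under 1500 gave the deposited −log10 p to within 0.001 for 100% of peaks. On simulated summits, 100% of 2898 (vehicle) and 100% of 2912 (GSK2879552) numbers were recovered. Ratios were scaled by the lowest background of each list, 1.08 in both; if no control library was used, depth was 6.17 reads per kb in vehicle and 6.44 in GSK2879552. Peaks overlapping by at least 1 bp were called shared, and mutual best partners were called pairs. Intervals are exact 95% binomial intervals or, for medians, order-statistic intervals; PCR copies may make them too narrow. The named sites were the 10 vehicle peaks of highest −log10 p, the first 5 of the vehicle list alone, all GSK2879552-only peaks, those nearest the gene starts, and the pairs of extreme ratio; further sites were picked after their values were seen. The window, genes, motif words and settings were chosen with earlier results of these data known. Python 3.11.15 and SciPy 1.17.1 were used over all peaks genome-wide. No hg19 genome was used here, so no peak sequence is shown. Alternatives comprised stricter thresholds, other overlap rules, other window grids and unscaled or background-subtracted fragments.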

Additional observations from a re-analysis of the deposited data

How the results depend on the processing

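With 1 list per group there is no spread between cultures; omitting a lane is not possible because a list covers both of its lanes. No paired analysis was possible because only 1 list exists for either group. The ratio of peak numbers ranged from 0.640 to 0.784 and that of covered length from 0.613 to 0.725 over the settings run. Both lists at a −log10 q of at least 10 left 27 vehicle and 18 GSK2879552 peaks, and a fold of at least 5 left 25 and 16, fewer by construction. The overlapped share of vehicle peaks ranged from 66.7% to 85.3%, and that of GSK2879552 peaks from 96.6% to 100%. The median log2 ratio ranged from -0.38 to -0.33. Scaling by reads per kb, 6.17 in vehicle and 6.44 in GSK2879552 if no control library was used, was not run and would lower the ratios. The rank by density ranged from 3 to 4, and by summed GSK2879552 fragments above background the window ranked 6. The strongest site ranked 2 by −log10 p, 5 by fragments above background and 64 by fold, the latter 2 added after seeing the data. The background median of 5.17 at weaker peaks lay just under the interval of the median over all locus peaks (5.20 to 6.42). Depth limits single sites: at 23 of 29 pairs the ratio interval held 1.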
